A study of Mus musculus with 6 samples.

Results

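The 10 genes described here, Tert, Terf1, Terf2, Terf2ip, Tinf2, Acd, Pot1a, Pot1b, Rif1 and Rtel1, encode the catalytic subunit of telomerase, the shelterin proteins and 2 further telomere factors. They were taken by symbol from a fixed list, and all 10 were found among the 55450 genes of the files. The study set Hoxd12-/- embryonic stem cells (ESCs) of the mouse against Wild Type ESCs, with 3 libraries a group. Both groups carry the labels strain C57BL6 and E3.5 embryo and grew in mES+2i medium, so genotype is the only labelled difference. How the knockout was made, and whether it is 1 clone or several, is not given in the sources used here. A stranded mRNA kit (VAHTS) was used on Trizol RNA. Since the labels name no separate cultures, the p-values measure only the spread between libraries, which may be technical.

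Telomeres are the repeated DNA ends of chromosomes, which shorten when a cell copies its DNA. Telomerase, the reverse transcriptase Tert with its RNA template Terc, adds repeats back, and embryonic stem cells keep it active. Shelterin coats the repeats and hides the chromosome end from the DNA damage response. Terf1 and Terf2 bind the double-stranded repeats, Pot1a and Pot1b bind the single-stranded overhang, and Tinf2 and Acd bridge the pairs, with Acd also bringing telomerase to the end. Mouse embryonic stem cells can also lengthen telomeres in pulses that involve Zscan4, a cluster of genes active in a small, changing fraction of the cells.

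The libraries held 5412577 to 6280934 expected counts (read counts estimated per gene), so 3 counts correspond to 0.478 to 0.554 CPM, the library-scaled count, for counting error only. Hoxd12 had 0 counts in all 6 libraries, so that gene gives no check of the labels. Knockout replicate 2 stood apart: its counts differed from those of knockout replicates 1 and 3 with a chi-square per degree of freedom of 5.79 and 7.03, against 1.97 to 2.51 for the other pairs within a group. The locus CT010467.1 took 1.63% of its counts, against 0.102% to 0.139% elsewhere; it was left out of these chi-squares. The 10 pluripotency markers summed to 8999 to 9495 CPM in knockout and 8823 to 9431 CPM in wild-type libraries. The 10 fibroblast (feeder) markers summed to 7.37 to 11.2 CPM in knockout and 12.1 to 17.5 CPM in wild-type libraries, with Col3a1, Postn, Dcn, Lum and Twist2 at 0. Primitive endoderm markers summed to 5.86 to 11.2 CPM in knockout and 3.42 to 6.46 CPM in wild-type libraries, with Sox7 at 0, and trophectoderm markers to 102 to 119 CPM in knockout and 112 to 127 CPM in wild-type libraries. The part of these cells in the results was not tested.

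The shelterin genes Acd, Pot1a and Terf2 were higher in the knockout, by 1.18- to 1.28-fold. The other 7 genes, Tert among them, did not pass the test (edgeR's quasi-likelihood test on the counts, Benjamini-Hochberg adjusted over 12891 genes, called below 0.05). Thus 3 of 10 genes, or 30%, were called, beside 26.5% of all genes tested. All 3 were higher, a direction in which 12.1% of all genes were called, and 0 were lower, beside 14.4% of all genes. None of the 10 had a lower level at an unadjusted p under 0.05. Lower calls also numbered 0 with DESeq2 and with limma, and 1, Terf1, after a length and GC correction (log2 fold change -0.19, adjusted p = 0.0269, against 0.0269 to 0.893 over all alternatives). The median log2 fold change of the 10 was 0.17, beside 0.02 for all genes tested, and their median size, sign ignored, was 0.17 beside 0.20. Of the 10, 4 lie on chromosomes 6 and 8, whose own medians were 0.16 and 0.17. Groups did not overlap in CPM for 3 of the 10, the called ones, beside 39.7% of all genes, and all 3 were higher in the knockout, beside 19.6% of all genes. In bulk RNA, fewer cells that express a gene and less RNA per cell cannot be told apart.

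**Figure D1:**
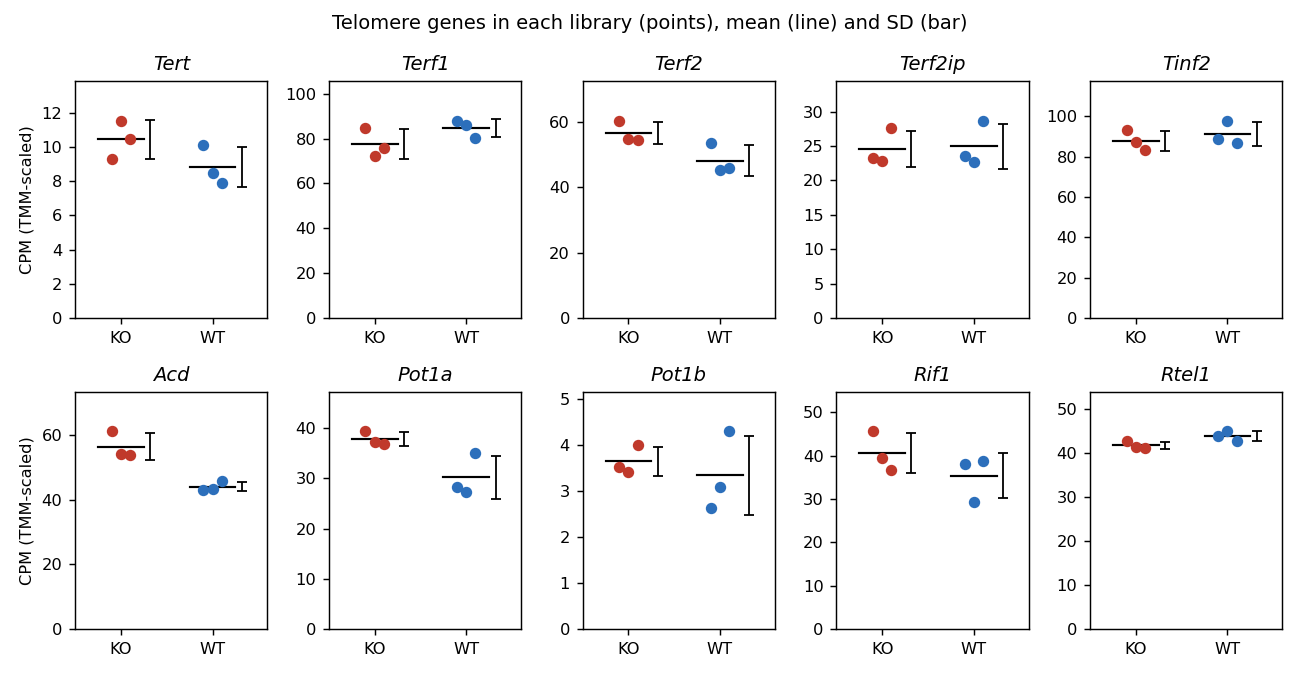
Normalised level of each of the 10 genes (CPM, TMM-scaled, linear axis from 0, 1 panel a gene) in the 3 knockout (KO) and 3 wild-type (WT) libraries, 1 point a library, with the group mean as a line and the SD as a bar. The knockout points of Acd, Pot1a and Terf2 all lie above the wild-type points, while the groups overlap for the other 7 genes.

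Tert (ENSMUSG00000021611, chromosome 13, 73626911 to 73649843, plus strand, GRCm38), the reverse transcriptase of telomerase, was detected in every library at a low level. It had 58, 61 and 68 counts in knockout libraries and 58, 52 and 46 counts in wild-type libraries. Scaled to depth these were 9.28, 11.5 and 10.5 CPM in the knockout, against 10.1, 8.47 and 7.91 CPM in wild type. The groups overlap, since knockout replicate 1 lies below wild-type replicate 1. The fold change was 1.18, with a 95% interval of 0.921 to 1.5 (log2 fold change 0.23 ± 0.17, SE; adjusted p = 0.346), so the data do not set its direction. Across the 6 libraries, the genes whose log2 CPM followed that of Tert most closely, among 9784 with a mean of at least 5 CPM, were Zfp628 (Pearson r = 0.98), Cog4 (0.98) and Oxct1 (0.97), over points that share library and depth. As the highest of 9784 values over 6 points, such r can arise from the choice alone and give no evidence of a link to Tert. None of these genes was called (edgeR, adjusted p = 0.458 for Zfp628, 0.331 for Cog4 and 0.422 for Oxct1).

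Terf1 and Terf2 both bind the double-stranded repeat, and of the pair Terf2 alone was called. Terf1 (ENSMUSG00000025925, chromosome 1, 15805646 to 15844052, plus strand), whose protein is known for helping replication forks through the repeats, had 84.8, 72.2 and 75.7 CPM in knockout and 88.0, 85.8 and 80.1 CPM in wild-type libraries. Knockout replicate 1 lies among the wild-type values, and the log2 fold change of -0.12 ± 0.07 (SE) did not pass the test (adjusted p = 0.181). Terf2 (ENSMUSG00000031921, chromosome 8, 107069400 to 107096547, minus strand) forms the loop that tucks the chromosome end away. It had 60.3, 54.8 and 54.5 CPM in knockout libraries, against 53.4, 45.3 and 45.7 CPM in wild-type libraries. Its groups come close, with wild-type replicate 1 only just below knockout replicates 2 and 3. Terf2 was called, with a log2 fold change of 0.23 ± 0.08 (SE; adjusted p = 0.0283), a 1.18-fold difference with an interval of 1.05 to 1.32. The call was lost with DESeq2 (adjusted p = 0.258), with an offset for transcript length (0.228), on TPM with a pseudocount of 1 (0.148) or 0.1 (0.149), and without knockout replicate 1 (0.152), wild-type replicate 2 (0.138) or wild-type replicate 3 (0.121), within a range of 0.00928 to 0.258 over 17 alternatives.

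Terf2ip, known as Rap1, rides on Terf2 and has no telomeric DNA binding of its own. Terf2ip (ENSMUSG00000033430, chromosome 8, 112011398 to 112020528, plus strand) averaged 24.5 ± 2.61 CPM in knockout and 24.97 ± 3.26 CPM in wild-type libraries (SD, n = 3 each), with a log2 fold change of -0.02 (interval -0.26 to 0.22). Tinf2 (ENSMUSG00000007589, chromosome 14, 55674689 to 55681820, minus strand) holds Terf1, Terf2 and Acd together, and had the highest CPM of the 10 in both groups. It averaged 87.9 ± 4.88 CPM in knockout and 91.1 ± 5.95 CPM in wild-type libraries (SD, n = 3 each), with a log2 fold change of -0.05 (interval -0.18 to 0.08). Neither gene passed the test (edgeR, adjusted p = 0.925 for Terf2ip and 0.582 for Tinf2), with 95% intervals of 0.838 to 1.16 for the fold change of Terf2ip and 0.881 to 1.05 for that of Tinf2.

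Acd, also called Tpp1, pairs with Pot1 proteins and carries the surface that recruits telomerase. Acd (ENSMUSG00000038000, chromosome 8, 105695860 to 105701102, minus strand) showed the clearest difference of the 10. It had 61.3, 54.3 and 53.9 CPM in knockout libraries, against 43.1, 43.5 and 45.9 CPM in wild-type libraries. Every knockout library lies above every wild-type library, with a gap wider than the spread within the wild-type group. The difference was 1.28-fold (interval 1.15 to 1.43; log2 fold change 0.36 ± 0.08, SE; adjusted p = 0.000827). Acd was called under all 17 alternatives run, with log2 fold changes of 0.29 to 0.44 and adjusted p of 0.000199 to 0.0369.

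Pot1a and Pot1b are rodent duplicates of a single ancestral Pot1, which in humans is 1 gene. Pot1a, the copy known in mice for holding back the ATR kinase at telomeres, (ENSMUSG00000029676, chromosome 6, 25743737 to 25809246, minus strand) had 39.4, 37.2 and 36.8 CPM in knockout libraries, against 28.3, 27.2 and 35.1 CPM in wild-type libraries. The groups are separated by the narrow step between knockout replicate 3 and wild-type replicate 3, and the other wild-type libraries lie further down. The difference was 1.25-fold (interval 1.09 to 1.44; log2 fold change 0.33 ± 0.10, SE; adjusted p = 0.0142). This call was lost with DESeq2 (adjusted p = 0.176), without knockout replicate 1 (0.0730), wild-type replicate 1 (0.0675) or wild-type replicate 2 (0.103), and after the length and GC correction (0.0555), within 0.00371 to 0.176 over 17 alternatives.

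Pot1b (ENSMUSG00000024174, chromosome 17, 55651951 to 55712628, minus strand), the copy known in mice for limiting resection of the chromosome end, was the lowest of the 10. It had 21.9, 18 and 26 counts in knockout and 14.99, 19 and 24.97 counts in wild-type libraries. At that depth its log2 fold change of 0.13 has an interval of -0.49 to 0.75 (edgeR, adjusted p = 0.801), so a change of the size seen for Pot1a was not detectable. Whether Pot1a and Pot1b differ in their response was not tested.

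Rif1 and Rtel1 work at telomeres without belonging to shelterin. Rif1 (ENSMUSG00000036202, chromosome 2, 52072832 to 52122383, plus strand), known for setting the timing of DNA replication and steering repair of breaks, had 45.6, 39.5 and 36.6 CPM in knockout and 38.1, 29.3 and 38.7 CPM in wild-type libraries. The groups overlap, with wild-type replicate 2 well below the other 5 libraries, and the log2 fold change of 0.20 ± 0.10 (SE) did not pass the test (adjusted p = 0.157). Without wild-type replicate 2 its log2 fold change was 0.08 (adjusted p = 0.636, the highest of the 17 alternatives, whose lowest is 0.0879). Rtel1 (ENSMUSG00000038685, chromosome 2, 181319739 to 181356616, plus strand), a helicase that unwinds the loop and other structures in the repeats, averaged 41.8 ± 0.815 CPM in knockout and 43.8 ± 1.16 CPM in wild-type libraries (SD, n = 3 each). Its log2 fold change of -0.07 (interval -0.23 to 0.10) did not pass the test (edgeR, adjusted p = 0.586), and it had the smallest spread between replicates of the 10 genes, 1.95% of the mean in knockout and 2.65% in wild-type libraries.

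All 3 called genes lie on chromosomes 8 and 6, which were shifted upwards as a whole in these libraries. The median log2 fold change was 0.17 over 703 tested genes of chromosome 8 and 0.16 over 600 of chromosome 6, whereas chromosome 11 had a median of -0.12 and the other autosomes -0.02 to 0.04. Of the other genes of chromosome 8, 30.1% were called higher, and of chromosome 6, 30.4%. The 6 genes that lie elsewhere gave 0 calls (also 0 at an unadjusted p under 0.05, with DESeq2 and with limma, and 1 after the length and GC correction). Acd exceeded the median of its chromosome by 0.19 on the log2 scale, Pot1a by 0.17 and Terf2 by 0.07, while Terf2ip lay 0.19 below it (a difference of -0.19).

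Neither Acd, Pot1a nor Terf2 was extreme on its chromosome. A share of 24.5% of the other chromosome 8 genes lay above Acd, 39.2% lay above Terf2, and 27.9% of chromosome 6 genes lay above Pot1a. Among the 20 nearest tested genes, 10 on each side, the median log2 fold change was 0.14 around Acd, with 7 called higher and 0 lower. Around Pot1a it was 0.16, with 7 higher and 4 lower, and around Terf2 0.12, with 4 higher and 1 lower. The difference from the chromosome median was 0.19 for Acd, 0.17 for Pot1a, 0.07 for Terf2 and -0.19 for Terf2ip. The standard errors of these fold changes were 0.08, 0.10, 0.08 and 0.12 in the same order. Whether any of these genes departs from its chromosome was not tested.

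**Figure D2:**
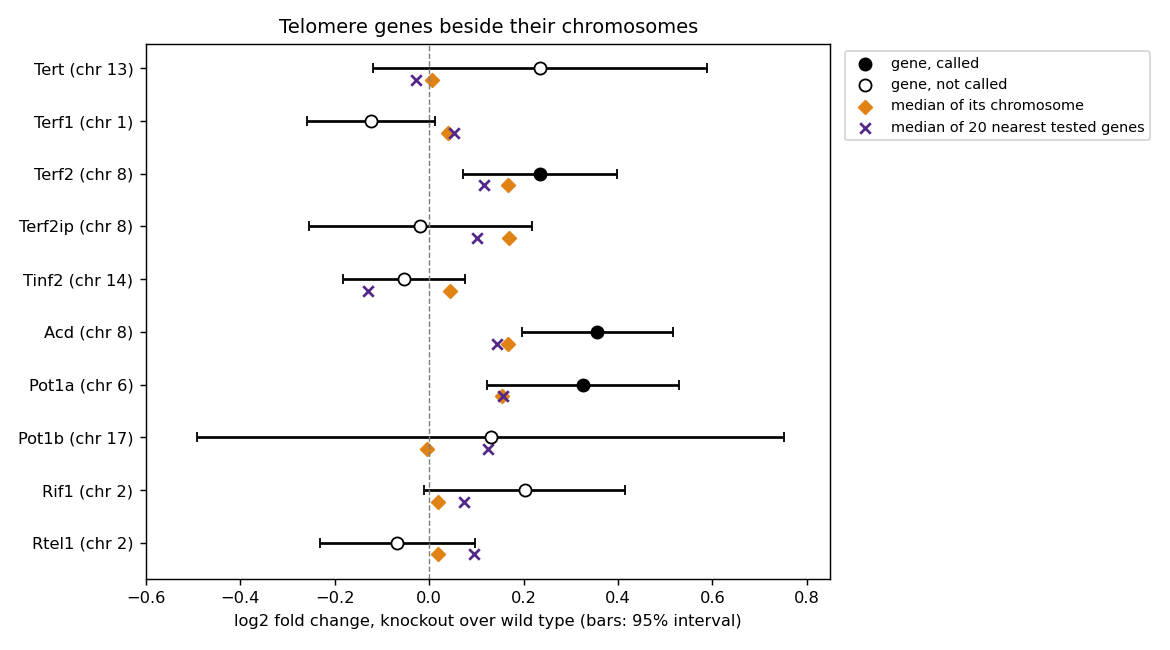
Log2 fold change (knockout over wild type) of each gene with its 95% interval, with filled points for genes called, beside the median of its chromosome (diamond) and of its 20 nearest tested genes (cross). Acd, Pot1a and Terf2 are the only called genes among the 10, and their chromosomes, 8 and 6, have medians of 0.17 and 0.16.

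Levels were compared between genes with the deposited TPM, the length-scaled abundance, which divides by an estimated transcript length. In knockout libraries the order by mean TPM was Terf1 (49.5), Acd (43.1), Rtel1 (41.8), Tinf2 (32.4), Terf2 (27.1), Pot1a (13.9), Rif1 (13.9), Terf2ip (6.91), Tert (3.59) and Pot1b (1.26). In wild-type libraries it was Terf1 (48.4), Rtel1 (42.5), Tinf2 (31.6), Acd (31.6), Terf2 (22.3), Rif1 (11.2), Pot1a (8.71), Terf2ip (6.46), Tert (2.53) and Pot1b (0.880). Neighbours in this order overlapped between libraries for Terf1, Acd and Rtel1 and for Pot1a and Rif1 in the knockout, and for Terf1 and Rtel1, Tinf2 and Acd, and Rif1 and Pot1a in wild type. Tert thus stood 9th in both groups, above Pot1b only. On TPM the groups did not overlap for 4 of the 10 genes, Acd, Pot1a, Pot1b and Rif1, beside 37.4% of all genes tested.

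The make-up of shelterin transcripts was measured as the share of each gene in the summed TPM of the 7 shelterin genes. Terf1 made up 28.5%, 27.3% and 29.3% in knockout libraries, against 34.3%, 32.01% and 30.5% in wild-type libraries. Acd made up 24.8%, 25.3% and 24.2% in the knockout, against 19.7%, 20.4% and 23.2% in wild type. Pot1a made up 9.29%, 7.62% and 6.89% in the knockout, against 5.56%, 5.15% and 6.73% in wild type. These groups do not overlap, with the Terf1 share lower and the Acd and Pot1a shares higher in every knockout library. The groups overlap for the other 4 genes. For comparison, the TPM of single genes did not overlap for 37.4% of all genes tested. Shares are bound to each other, so a share can fall without a fall in the TPM of that gene. Terf1 itself averaged 49.5 TPM in knockout and 48.4 TPM in wild-type libraries, with overlapping groups, so its lower share is not a lower TPM. On counts its log2 fold change was -0.12 (edgeR, adjusted p = 0.181), and -0.19 after the length and GC correction (edgeR, adjusted p = 0.0269). Whether the level of Terf1 is lower is thus not settled. Whether the make-up of shelterin transcripts changed was not tested. The ratio of Terf1 to Terf2 TPM, chosen after the values were seen, was 1.78, 1.80 and 1.90 in knockout libraries, against 2.10, 2.23 and 2.20 in wild-type libraries. Pot1a exceeded Pot1b 11.3 ± 3.86-fold in knockout and 10.1 ± 1.23-fold in wild-type libraries (SD, n = 3 each), and the groups overlap. The summed TPM of the 7 genes was 192, 155 and 175 in knockout libraries, against 151, 152 and 148 in wild-type libraries. The lowest knockout sum lies just above the highest wild-type one, and the median of all genes was itself 0.11 higher on the log2 scale of TPM with a pseudocount of 0.1. Shares and sums carry no test here.

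**Figure D3:**
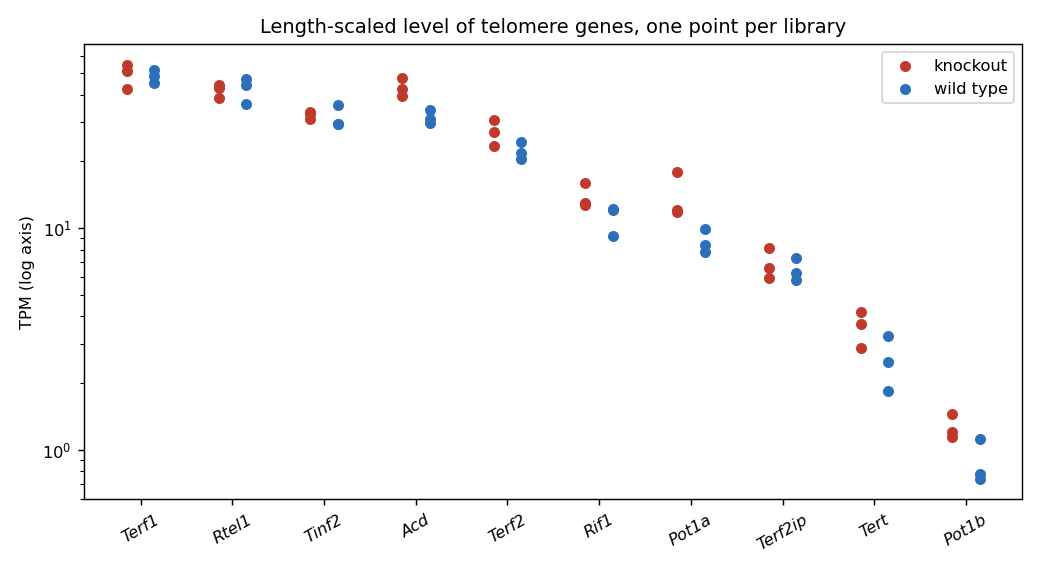
Deposited TPM (log axis) of each of the 10 genes, 1 point a library, in knockout and wild-type libraries, with genes in the order of their wild-type mean. Terf1 is highest and Tert and Pot1b are lowest in both groups.

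The TPM rest on the estimated transcript lengths, and for several of these genes the estimates lie far from the full-length coding transcript of GENCODE M21. For Tert, whose coding transcript has 4313 bases, the lengths were 2520, 2570 and 3730 bases in knockout libraries and 3730, 2364 and 3784 bases in wild-type libraries. A length of 3730 is that of Tert-206, an annotated target of nonsense-mediated decay, and 1 library of each group has that length, as an average over transcripts would give if all Tert reads were placed there. Transcript-level estimates were not used here. For Acd the lengths lay between 1279 and 1419 bases, although its single coding transcript has 3154. For Rtel1 they were 909 to 1205 bases, although its longest coding transcript has 4401, and for Rif1 2807 to 2973, although the longest has 8509.

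With CPM divided by the length of the longest coding transcript instead, the order changed. In knockout libraries Acd moved to 4th place with 17.9 ± 1.33 CPM per kilobase, against 14.005 ± 0.475 in wild-type libraries (SD, n = 3 each). Rtel1 moved to 6th place in the knockout with 9.50 ± 0.185 CPM per kilobase and to 5th place in wild type with 9.95 ± 0.264. Terf1 and Tinf2 then led in both groups, and Tert and Pot1b were lowest in both. The place of Acd and Rtel1 among these genes therefore depends on the length used, whereas fold changes from the counts do not use it.

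Estimated lengths differed between the groups without overlap for Pot1b and Terf2ip, beside 16% of 10042 genes compared. Pot1b had 3060, 2629 and 2868 bases in knockout libraries, against 3276, 3523 and 3378 bases in wild-type libraries, shorter as in 5.27% of genes, at 14.99 to 26 counts a library. For Terf2ip the lengths were 3474 to 3515 bases in the knockout and 3460 to 3472 in wild type, a narrow difference. Pot1a had a length of 2237 bases in knockout replicate 1, against 2916 to 3147 in the other libraries, and its TPM there was 17.8, against 11.8 and 12.1 in the other knockout libraries. Its log2 fold change on TPM reached 0.65, against 0.33 on counts.

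Acd and Tinf2 overlap genes on the opposite strand, and whether the counting used strand is not given in the sources used here. Acd shares 1208 exon bases with Carmil2 and 23.1% of its 50-base words with other genes, and Tinf2 shares 1540 exon bases with Gmpr2 and 26.5% of its words. If strand was not used, reads there cannot be assigned to 1 gene, so values of Acd and Tinf2 are uncertain to that extent. Carmil2 had 23.9% to 38.1% as many counts as Acd, with a log2 fold change of 0.09 (edgeR, adjusted p = 0.711). Whether the overlap bears on the difference in Acd was not tested. Gmpr2 had 8.51% to 13.3% as many counts as Tinf2, with a log2 fold change of -0.28 (edgeR, adjusted p = 0.262). The other 8 genes share at most 2.97% of their words. Among them, Terf2ip shares 108 exon bases with Gm6793 on the opposite strand, which had at most 17.5 counts in a library.

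The promoters of the 3 called genes Acd, Terf2 and Pot1a are shown because these genes rose, and that of Tert for comparison. Each runs 5′ to 3′ on the strand of the gene, over 250 bases before and 50 after the gene start (RefSeq, GRCm38.p6), with GC boxes (GGGCGG, or CCGCCC on the other strand) in capitals. The windows are chr8:105701179-105701478 (minus strand) for Acd, chr8:107096496-107096795 (minus) for Terf2, chr6:25809169-25809468 (minus) for Pot1a and chr13:73626661-73626960 (plus) for Tert. In GENCODE M21 Acd starts at 105701102, so its whole window lies upstream of that start. The other windows shown span the GENCODE start of their gene.
Acd: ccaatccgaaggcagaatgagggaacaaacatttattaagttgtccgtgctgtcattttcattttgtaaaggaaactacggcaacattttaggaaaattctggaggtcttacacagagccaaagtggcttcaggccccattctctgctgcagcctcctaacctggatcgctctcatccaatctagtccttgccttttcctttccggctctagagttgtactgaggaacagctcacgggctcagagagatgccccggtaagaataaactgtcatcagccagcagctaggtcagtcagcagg
Terf2: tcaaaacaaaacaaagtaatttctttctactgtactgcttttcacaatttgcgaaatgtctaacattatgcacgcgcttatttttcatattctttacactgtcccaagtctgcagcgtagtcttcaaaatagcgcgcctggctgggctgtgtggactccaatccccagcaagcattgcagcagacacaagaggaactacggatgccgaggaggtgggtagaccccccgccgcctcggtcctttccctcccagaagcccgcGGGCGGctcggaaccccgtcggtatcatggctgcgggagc
Pot1a: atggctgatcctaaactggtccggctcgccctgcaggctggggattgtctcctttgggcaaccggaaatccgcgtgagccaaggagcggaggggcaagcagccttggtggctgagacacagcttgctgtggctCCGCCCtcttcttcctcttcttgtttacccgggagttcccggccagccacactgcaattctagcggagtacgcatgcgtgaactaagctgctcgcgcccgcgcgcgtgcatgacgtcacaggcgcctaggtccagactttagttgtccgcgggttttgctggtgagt
Tert: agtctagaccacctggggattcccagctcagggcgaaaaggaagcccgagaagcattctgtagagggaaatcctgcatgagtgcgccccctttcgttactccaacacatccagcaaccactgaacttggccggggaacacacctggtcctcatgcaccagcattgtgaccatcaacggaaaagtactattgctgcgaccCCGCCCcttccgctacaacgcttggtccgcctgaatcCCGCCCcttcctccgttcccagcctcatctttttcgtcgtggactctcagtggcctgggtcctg

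A promoter was found for 8 of the 10 genes, all but Terf1 and Rif1. A set of 4 words was searched on both strands: the GC box; the E-box CACGTG, bound by Myc and its partners; TTAGGG, the telomere repeat itself; and TTTACGA, a word in the motifs of posterior Hox proteins. The GC box occurred in 6 of the 8, beside 35.9% of 27025 RefSeq promoters of that length, with 2 copies in Tert and 0 in Acd and Tinf2. TTAGGG occurred in that of Pot1b alone, beside 10.5% of all promoters. CACGTG and TTTACGA occurred in 0 of the 8, beside 7.24% and 0.625% of all promoters. In these windows the called genes thus had no searched word in common, with 1 GC box each in Terf2 and Pot1a. None of the 4 words occurred in the window of Acd, which lies upstream of its GENCODE start.

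Partners of telomerase and shelterin were read from 8 lists of 92 genes, of which 81 were tested. Of these, 18 were called higher and 16 lower in the knockout, 42.0% beside the 26.5% of all genes, with a median log2 fold change of 0.02. With DESeq2 the counts were 4 higher and 10 lower, where 1587 of all genes were called, against 3420 with edgeR. The lower calls of either test include Zscan4a, Zscan4c, Zscan4f and Zscan4-ps2, near-identical copies described below. Shares of all genes by direction were not taken with DESeq2. Outside the list of Zscan4-dependent elongation, 18 were called higher and 12 lower of 75 tested, or 40.0%, with a median of 0.04. The counts of single lists below stand beside 12.1% of all genes called higher and 14.4% called lower. Whether the lists differ from all genes was not tested.

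The telomerase particle gave 4 higher and 5 lower of 16 tested genes (median log2 fold change 0.01). Of the 4 proteins that bind the RNA as a unit, Dkc1 was called higher, Nhp2 and Nop10 lower, and Gar1 was not called (-0.14, adjusted p = 0.0669). Dkc1, the dyskerin that holds the telomerase RNA, averaged 175 ± 4.70 CPM in knockout and 152 ± 4.43 CPM in wild-type libraries (SD, n = 3 each; log2 fold change 0.20, adjusted p = 0.00168). Nhp2 averaged 308 ± 23.9 CPM in knockout and 496 ± 27.7 CPM in wild-type libraries (-0.69, adjusted p = 5.53e-11), and Nop10 averaged 167 ± 11.6 CPM in knockout and 217 ± 3.16 CPM in wild-type libraries (-0.38, adjusted p = 2.57e-07). These proteins also serve the H/ACA RNAs that modify ribosomal RNA. Ruvbl2, an ATPase that helps assemble the particle, was lower as well, at 299 ± 8.19 CPM in knockout and 353 ± 1.57 CPM in wild-type libraries (-0.24, adjusted p = 8.30e-05), a call lost on TPM. The RNA template itself, Terc, had 2, 4 and 4 counts in knockout and 6, 4 and 3 counts in wild-type libraries. It lacks a poly(A) tail in its mature form, and at these counts a mRNA kit gives no measure of it.

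Of the genes that regulate shelterin, 3 were higher and 1 lower of 10. Tnks, the tankyrase that releases Terf1 from telomeres in human cells, had 33.0, 35.0 and 33.6 CPM in knockout libraries, against 21.5, 20.8 and 20.3 CPM in wild-type libraries. Its groups lie far apart beside their spread (log2 fold change 0.70 ± 0.10, SE; adjusted p = 3.33e-06). Tnks also lies on chromosome 8, whose median is 0.17. Prkdc, the DNA-dependent kinase, was higher too (log2 fold change 0.50, adjusted p = 0.00130), a call lost on TPM. Its Ku partners had smaller values, Xrcc5 higher (0.14, adjusted p = 0.0465) and Xrcc6 lower (-0.17, adjusted p = 0.0494), and both calls were lost in 12 of 17 alternatives. Among these, Xrcc5 was lost whichever library was left out (adjusted p 0.0553 to 0.118), and Xrcc6 without knockout replicate 1 (0.235) or 2 (0.0876) and without wild-type replicate 1 (0.269) or 2 (0.0735).

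Genes of the lagging telomere strand and of end processing had log2 fold changes of -0.32 to 0.49. The CST complex with polymerase alpha and primase gave 2 higher and 1 lower of 7 (median log2 fold change 0.14): the primase subunit Prim2 (0.29, adjusted p = 0.0276) and Pola2 (0.17, 0.0309) were higher, and Ctc1, the large CST subunit, was lower (-0.15, 0.0435), with each call lost with DESeq2. Of 14 helicases and nucleases, 1 was higher and 1 lower (median -0.04). Dna2, a nuclease and helicase, averaged 30.1 ± 1.77 CPM in knockout and 21.9 ± 3.45 CPM in wild-type libraries (SD, n = 3 each; log2 fold change 0.45, adjusted p = 0.00282), and Eme1 was lower (-0.24, adjusted p = 0.0443), both calls being lost with DESeq2. Of 7 partners of Rif1, 1 was higher, the phosphatase subunit Ppp1cb (0.19, adjusted p = 0.0349), and 1 lower, the shieldin subunit Mad2l2 (-0.28, adjusted p = 0.0106), both also lost with DESeq2. Over 17 alternatives the adjusted p reached 0.258 for Prim2, 0.266 for Pola2, 0.878 for Ctc1, 0.0697 for Dna2, 0.561 for Eme1, 0.885 for Ppp1cb and 0.21 for Mad2l2. With single libraries left out, Dna2 stayed called throughout, and Mad2l2 was lost without knockout replicate 1 (0.0531) and wild-type replicate 2 (0.08). The calls of Prim2, Pola2, Ctc1, Eme1 and Ppp1cb were each lost without 3 to 5 of the 6 libraries, with adjusted p up to 0.0935 for Prim2 (without knockout replicate 1), 0.121 for Pola2 (without wild-type replicate 3), 0.225 for Ctc1 (without knockout replicate 3), 0.245 for Eme1 (without knockout replicate 1) and 0.256 for Ppp1cb (without wild-type replicate 1).

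Among 20 genes of telomeric chromatin and alternative lengthening, 6 were higher and 3 lower (median log2 fold change 0.06). Trim28, a corepressor of repeated DNA, averaged 1210.4 ± 5.81 CPM in knockout and 1467 ± 19.7 CPM in wild-type libraries (SD, n = 3 each; -0.28, adjusted p = 5.36e-06). Of the DNA methylases, Dnmt3a was not called (log2 fold change 0.16, adjusted p = 0.116), and the other two were called in opposite directions, with Dnmt3b lower at 19.9 ± 0.878 CPM in knockout and 32.1 ± 2.16 CPM in wild-type libraries (-0.69, adjusted p = 8.13e-06) and Dnmt1 higher (0.25, adjusted p = 0.00171). Hmbox1, also called Hot1, a protein that binds the repeats directly, was higher, at 15.9 ± 3.15 CPM in knockout and 9.97 ± 1.79 CPM in wild-type libraries (0.68, adjusted p = 0.00194), a call lost with DESeq2 and on TPM. The call of Dnmt1 was lost on TPM. Of the meiotic telomere genes only Sun1, which ties telomeres to the nuclear envelope, was tested, and it was higher (0.23, adjusted p = 0.0190), a call lost with DESeq2, on TPM and without knockout replicate 2 (0.0589), knockout replicate 3 (0.119) or wild-type replicate 3 (0.161).

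The Zscan4 cluster was lower in the knockout. Its copies are nearly identical, so counts of single copies are uncertain, and their sum is the safer measure. Over 9 Zscan4 genes the sum was 4.58, 3.39 and 2.71 CPM of the library total in knockout libraries, against 35.8, 33.96 and 36.4 CPM in wild-type libraries. Of the 13 listed genes of Zscan4-dependent elongation, 6 passed the count filter, and 4 of these, all Zscan4 copies, were called lower. These 4 passed the filter through their wild-type level, so their count says nothing of the list. Zscan4f had 7.17, 7.26 and 0.24 counts in knockout and 65.1, 63.6 and 77.9 counts in wild-type libraries, and Zscan4a had 1.23, 3.43 and 1.46 counts in knockout and 19.2, 22.6 and 20.3 counts in wild-type libraries. Zscan4c had 7.07, 3.21 and 1.81 counts in knockout and 43.6, 44.5 and 32.7 counts in wild-type libraries, and Zscan4-ps2 had 5.88, 1.88 and 6.27 counts in knockout and 30.03, 45.99 and 38.8 counts in wild-type libraries. Knockout counts lie near 3, so the size of a fold change is poorly set: that of Zscan4f was -3.88 on the log2 scale, but -3.25 without knockout replicate 3, -4.36 without knockout replicate 2 and -2.35 on log2(TPM + 1). The same holds for Zscan4a, at -3.56, with -3.25 without knockout replicate 3, -4.31 without knockout replicate 2 and -1.07 on log2(TPM + 1), and for Zscan4c, at -3.33, with -3.95 without knockout replicate 1 and -1.54 on log2(TPM + 1). Zscan4-ps2 had -3.03, and -1.43 on log2(TPM + 1). All 4 were called under the 17 alternatives run. Tbx3 and Dcaf11, the other two genes tested, had log2 fold changes of -0.01 each (edgeR, adjusted p = 0.919 and 0.955).

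**Figure D4:**
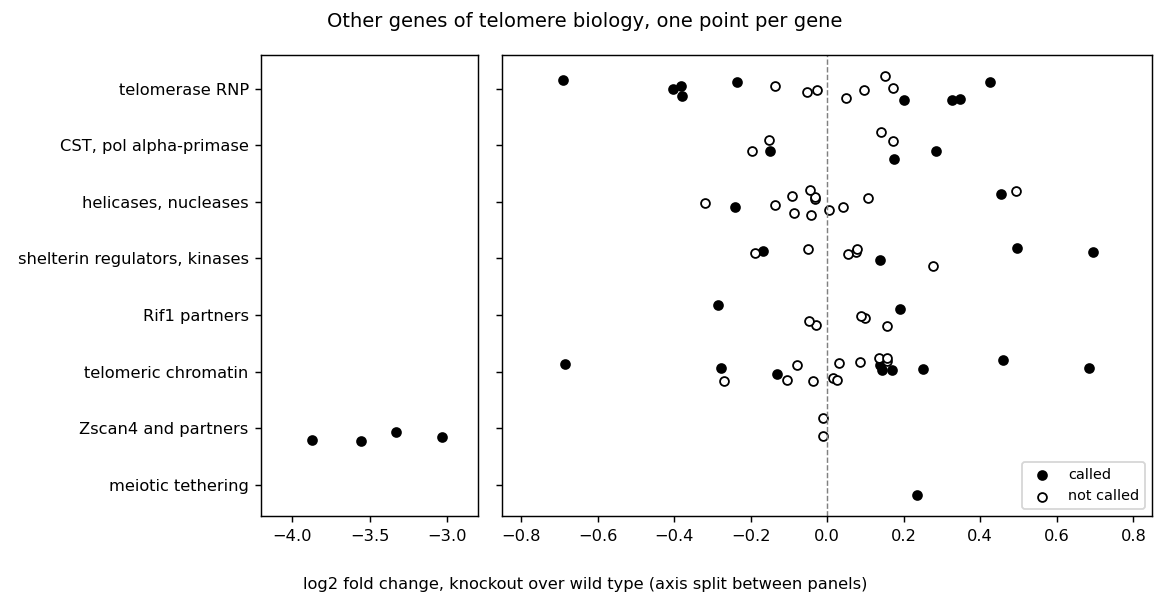
Log2 fold change (knockout over wild type) of the tested partner genes, 1 point a gene, by list, with filled points for genes called and the axis split into 2 panels of different scale. The 4 Zscan4 copies, which passed the count filter through their wild-type level, lie at -3.03 to -3.88, in the left panel.

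Some called partner genes lie on the shifted chromosomes: 3 of the 18 higher genes (Naf1, Tnks and Cbx3) lie on chromosomes 6 and 8, and 5 of the 16 lower ones (Nhp2, Wrap53, Ctc1, Eme1 and H3f3b) on chromosome 11, named here after their values were seen. Of the 12891 genes tested, 600 lie on chromosome 6, 703 on chromosome 8 and 1050 on chromosome 11. Of chromosome 8 genes other than Acd, 30.1% were called higher, and of chromosome 6 genes other than Pot1a, 30.4%. On chromosome 11, 29.0% of tested genes had a log2 fold change above 0, and the share called lower was not taken. Whether partner genes were called more often than their chromosome was not tested. Beside the chromosome 11 median of -0.12, the log2 fold change was -0.69 for Nhp2, -0.40 for Wrap53 and -0.24 for Eme1. It was -0.15 for Ctc1 and -0.13 for H3f3b, close to that median. On chromosome 8 (median 0.17), Tnks had 0.70 and Naf1 0.33, and on chromosome 6 (median 0.16) Cbx3 had 0.14. How much of each change belongs to its chromosome was not tested.

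**Figure D5:**
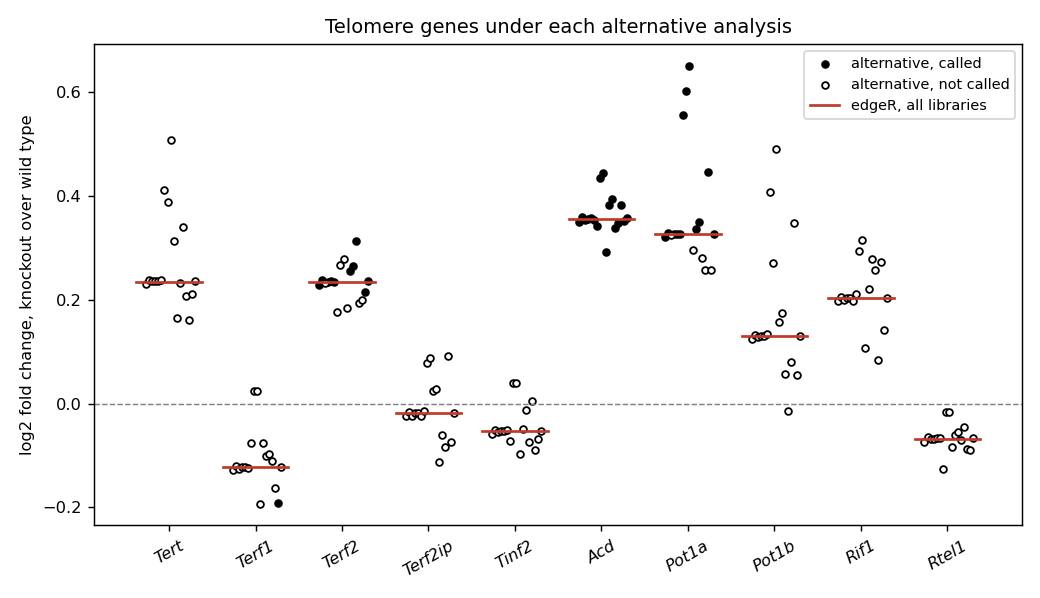
Log2 fold change of each of the 10 genes with all libraries in edgeR (line) and under 17 alternatives (points), with filled points where the gene was called. Acd is filled throughout, Pot1a under 12, Terf2 under 10 and Terf1 under 1 of the alternatives.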

How the data were processed

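Polyadenylated RNA of 3 knockout and 3 wild-type libraries was measured, with groups and replicate numbers from the sample titles. Each file gives, per the file headers, a gene's expected count, its TPM and FPKM, and 2 lengths. The authors' deposited expected counts are estimated counts with no scaling for depth. TPM and FPKM, as deposited, correct for transcript length and depth, and FPKM was not used. The lengths are the authors' deposited values in bases. Bowtie 0.12.2 and builds mm8 and mm10 are named, without roles, in the submitters' processing notes. Which quantifier, annotation and strand setting the authors used is not given in the sources used here. Every gene ID matched GENCODE M21 (GRCm38), the source of symbols and coordinates.

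Expected counts were rounded and tested in R 4.3.3 with edgeR 4.0.16 (TMM, filterByExpr, robust quasi-likelihood test, group as the only term, all 6 libraries). P-values were adjusted by Benjamini-Hochberg over 12891 genes and called below 0.05. The coefficient of variation between replicates (common BCV) was 6.74%. CPM use TMM-scaled library sizes, except the Zscan4 sum and the limits from 3 counts. The steps were tested on simulated data. The members and lists were chosen with earlier results of these data known.

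Named were all 10 members, Hoxd12, Terc and Dkc1, up to 4 called genes of each partner list by p, and the 3 genes most like Tert. Other names were chosen after their values were seen. Alternatives were RLE scaling, TMM from genes outside chromosomes 6, 8 and 11, DESeq2 1.42.0, no count filter, 1 CPM in 3 libraries, a replicate block, an effective length offset, limma 3.58.1 on log2 TPM with a pseudocount of 1 or 0.1, and each library left out in turn. A loess correction for length and GC content and removal of the locus CT010467.1 were chosen after seeing the data.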

Additional observations from a re-analysis of the deposited data

How the results depend on the processing

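The number of genes called was 3420 in the main test, and 1587 with DESeq2, 1856 on log2(TPM + 1), 1824 on log2(TPM + 0.1) and 2615 to 3210 with a library left out. Of the 10 telomere genes, 3 were called higher in the main test and 1 with DESeq2, and 1 to 3 with a library left out, with 1 left without knockout replicate 1 and without wild-type replicate 2. The lower calls were 0 with any library left out and 1 after the length and GC correction. Of the partner genes, 18 higher calls became 4 with DESeq2, 11 on either TPM scale, 11 after the length and GC correction and 11 to 14 with a library left out; 16 lower calls became 10 with DESeq2, 9 on either TPM scale and 12 to 16 with a library left out. Among the 10 genes and the partner genes named by rule, directions reversed only where the main log2 fold change was small. On log2(TPM + 1) and log2(TPM + 0.1), Terf1 turned to 0.0240 and 0.0243, Terf2ip to 0.0786 and 0.0885, Tinf2 to 0.0391 and 0.0404 and Ctc1 to 0.0828 and 0.0836, where the median of all genes was itself 0.0965 and 0.114. With a library left out, Terf2ip ranged from -0.112 to 0.0910 (above 0 without knockout replicates 1 or 2 or wild-type replicate 3), Tinf2 from -0.0976 to 0.00420 (above 0 without wild-type replicate 2) and Pot1b from -0.0151 to 0.348 (below 0 without wild-type replicate 1). The cause was not tested. Of the 24 partner genes named by rule and called, 10 were called under every alternative run. These include Zscan4a, Zscan4c, Zscan4f and Zscan4-ps2, near-identical copies that passed the count filter through their wild-type level. The same share over all called genes was not taken. Same-numbered libraries deviated with correlations of -0.005, 0.04 and 0.008, within the -0.04 to 0.04 of differing numbers. No shared deviation was seen, but these values cannot tell whether same-numbered libraries were prepared together. With the replicate block 3353 genes were called, 3 of the 10 telomere genes, and 17 higher and 15 lower partner genes. Without knockout replicate 2, which stood apart, 3 of the 10 telomere genes were called. Among the 10 telomere genes, Pot1b and Tert had the fewest counts and the widest intervals.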
